A study of Danio rerio with 4 samples.

Results

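The proteasome is the barrel-shaped protease that degrades proteins tagged with ubiquitin, and its subunit genes were followed here through 4 ovary libraries of adult zebrafish. The genes were chosen by name, from 38 symbols of core and cap subunits such as psma1, psmb5 and psmd2, with case ignored and a final paralog letter optional. They matched 40 of the 49610 rows, printed here with the letter case of the symbol table (PSMA1). These rows stand for 34 subunits or chaperones, with paralogs counted together. Of the 40 rows, 16 belong to the 20S core, 21 to the 19S cap and 3 to chaperones that help to build the base of the cap. All 40 had a mean of at least 10 FPKM (fragments normalised to transcript length and to sequencing depth), so the filter on low values, a mean of at least 1 FPKM, removed none.

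The fish were wild-type AB females, 5 months old. One ovary library came from fish exposed for 30 days to dibutyl phthalate (DBP), another from fish exposed to its isomer with branched chains, diisobutyl phthalate (DiBP), the next from fish exposed to both compounds (the combined library), and the last from control fish. Both compounds are plasticisers. Each group had 1 library, so there is no replicate check and no test: every difference below is a difference between libraries. The sources used here give neither the doses nor whether a library pooled several fish. All 3 comparisons with the control use the same control library, which ties their values to each other.

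As background, the core is a stack of rings. Outer rings of alpha subunits form the gate, and inner rings of beta subunits hold the active sites. The cap sits on the gate: its ring of ATPases (PSMC proteins) unfolds the substrate, and its other subunits (PSMD proteins) bind ubiquitin, cut it off and hold the cap together. In oocytes the proteasome degrades cyclin B and securin after the anaphase-promoting complex has tagged them, which lets meiosis pass metaphase.

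Some properties of the libraries touch every value. The summed FPKM over all rows lay between 512635 and 598063. Absolute depth is unknown; judged by the commonest ratio between low values, relative depth was 1.05 with DBP, 0.91 with DiBP and 1.02 with both, taking the control as 1. Of 8 oocyte marker rows, 7 were expressed and zp3b was listed at 0 in every library; bmp15 lay between 75.5 and 106 FPKM. Markers of other cells were low but uneven. The 7 smooth muscle rows summed to 40.9 FPKM with DBP, 15.1 with DiBP and 8.92 with both, against 6.97 in the control. Most of each sum came from 1 TAGLN row (ENSDARG00000045408), at 33.5, 10.1, 6.79 and 5.47 FPKM in that order. The 5 endothelial rows summed to 2.07 FPKM with DBP, 1.25 with DiBP and 1.39 with both, against 2.20 in the control. For the 4 erythrocyte rows the sums were 1.75, 3.62, 0.752 and 1.86 FPKM in the same order. Fewer cells of a type cannot be told apart from less RNA per cell in whole ovary.

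Proteasome transcripts were abundant in every library. Their summed level was 4114 FPKM with DBP, 4244 with DiBP and 3684 with both, against 4005 in the control. That made 0.861% of the summed FPKM of loci past the filter with DBP, 0.862% with DiBP and 0.834% with both, against 0.884% in the control. The family thus took a similar share of the transcript pool in the 4 libraries. The order of the summed levels depended on scaling. With equal sums apart from the 50 most abundant loci, they were 3939 FPKM with DBP, 4064 with DiBP and 4012 with both, against 4033 in the control. Of the 40 rows, 25 ranked within the top 10% of the 13859 loci past the filter, and the median row stood above 92.3% of them. PSMA1, a gate subunit, had the highest mean, and PSMD5, a chaperone, the lowest, above 56.3% of loci.

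**Figure D1:**
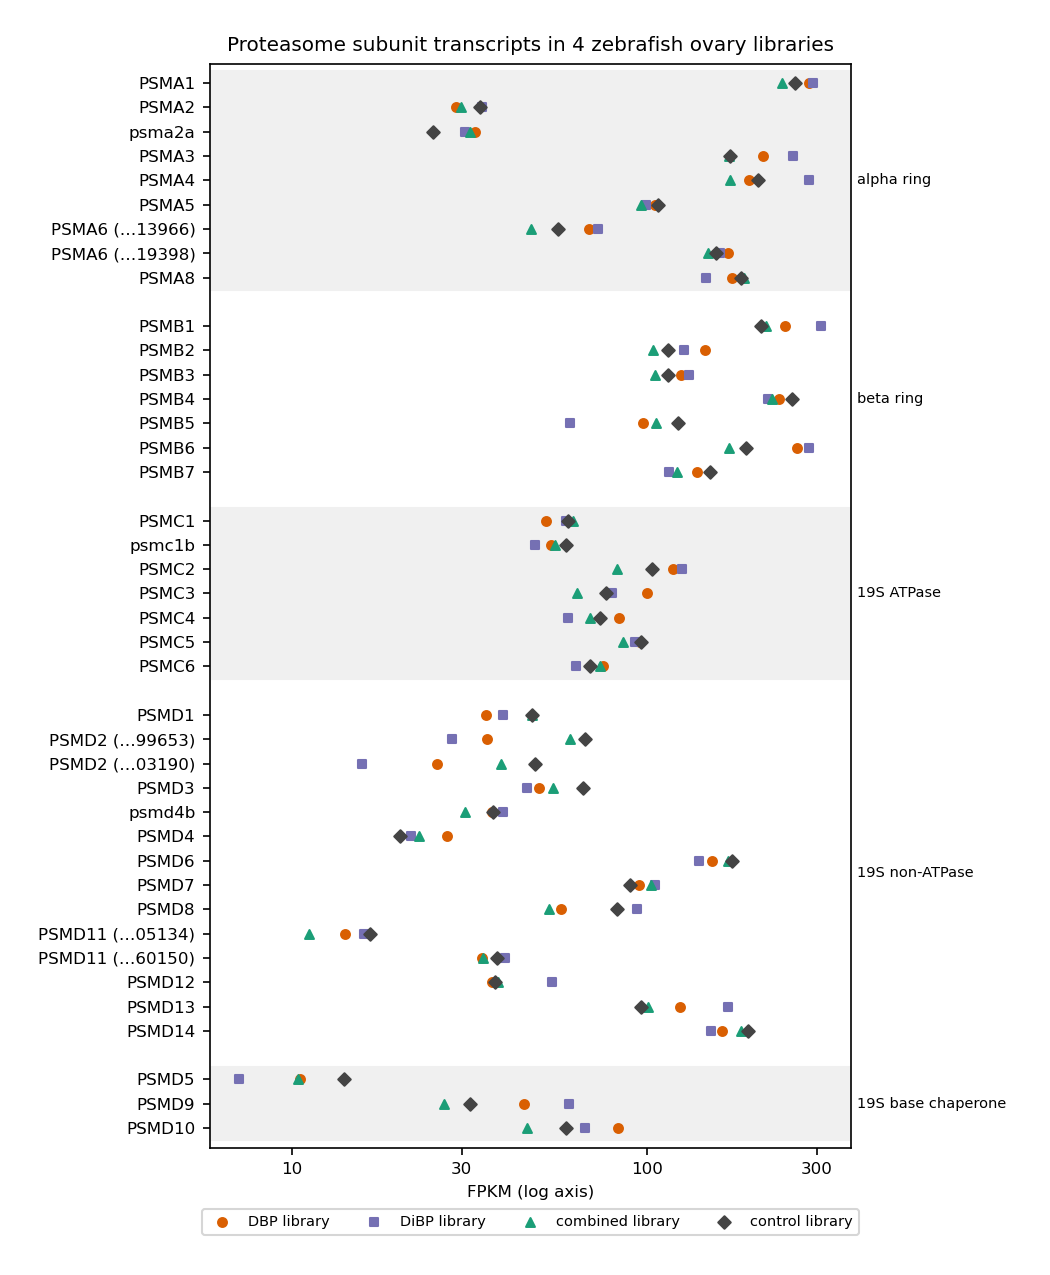
FPKM of each of the 40 proteasome rows in the DBP, DiBP, combined and control libraries (log axis, 1 point per library), ordered by place in the complex. The points of a row sit close together for PSMA5 and PSMC5 and further apart for the 2 rows of PSMD2, for PSMB5 and for PSMD9.

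The highest of a row's 4 values was between 1.12 and 3.06 times the lowest, with a median of 1.37. Over the 6210 abundant loci, those averaging 10 FPKM or more, a limit chosen after the levels were known, that median was 1.47. The ratio was 1.5 or more at 14 rows (35.0%, against 47.1% of those loci) and 2 or more at 4 rows (10%, against 17.6%). The abundant loci were not matched to the rows in level, since the median row stood above 92.3% of loci past the filter. PSMA5, a subunit of the alpha ring, was among the steadiest, at 105 FPKM with DBP, 99.2 with DiBP and 95.8 with both, against 107 in the control. PSMC5, one of the ATPases, was at 95.5 FPKM with DBP, 92.4 with DiBP and 85.6 with both, against 95.7 in the control. The highest of a row's values was from DBP at 8 rows (20%, against 27.9% of the abundant loci), from DiBP at 16 (40.0%, against 26.7%), from the combined library at 2 (5.0%, against 11.1%) and from the control at 14 (35.0%, against 34.3%). The lowest was from DBP at 5 rows (12.5%, against 11.4%), from DiBP at 13 (32.5%, against 36.1%), from the combined library at 17 (42.5%, against 33.3%) and from the control at 5 (12.5%, against 19.3%). The DiBP library thus held the highest value at a larger share of rows than of abundant loci. It held the lowest value at a slightly smaller share.

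In the alpha ring, once rows of the same subunit were summed, PSMA1 was the highest of the 7 subunits and PSMA2 the lowest in each library. PSMA1 (ENSDARG00000101560) was at 285 FPKM with DBP, 292 with DiBP and 239 with both, against 261 in the control. PSMA3 (ENSDARG00000086618) was at 212 FPKM with DBP, 257 with DiBP and 169.7 with both, against 171 in the control. Its DiBP value stood above the rest, and the combined and control values nearly coincided. PSMA4 had its highest value with the same compound, at 193 FPKM with DBP, 285 with DiBP and 171 with both, against 205 in the control. PSMA8 had its lowest value there, at 173 FPKM with DBP, 147 with DiBP and 188 with both, against 184 in the control. In mammals PSMA8 is the testis counterpart of PSMA7; RefSeq gives psma7 as another name of the zebrafish gene.

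Alpha subunits with a pair of rows came next. The PSMA6 row ENSDARG00000019398 was at 168 FPKM with DBP, 160.3 with DiBP and 148 with both, against 156 in the control. Its partner ENSDARG00000013966 was lower in each library, at 68.3 FPKM with DBP, 72.8 with DiBP and 47.2 with both, against 56.2 in the control. The higher row gave 71.1% of the pair's sum with DBP, 68.8% with DiBP and 75.9% with both, against 73.5% in the control, so the split moved little. PSMA2 (ENSDARG00000035679) was at 28.9 FPKM with DBP, 34.3 with DiBP and 29.8 with both, against 33.8 in the control. The paralog row psma2a (ENSDARG00000040121) was at 32.7 FPKM with DBP, 30.8 with DiBP and 31.7 with both, against 24.98 in the control. Its values equal those of ATAD2, an unrelated gene, in every library, so they cannot be credited to psma2a alone.

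The beta ring holds the active sites: PSMB5 cuts after hydrophobic residues, PSMB6 after acidic and PSMB7 after basic ones. PSMB5 (ENSDARG00000075445) was at 97.4 FPKM with DBP, 60.7 with DiBP and 106 with both, against 122 in the control. The DiBP value lay lowest and apart from the rest, with a log2 ratio to control of -0.997 on the log2(FPKM + 1) scale used for all ratios here. PSMB6 was at 264 FPKM with DBP, 285 with DiBP and 169 with both, against 189.9 in the control. Both single exposures lay above the control and the combined library below it. PSMB7 was at 138 FPKM with DBP, 115 with DiBP and 121 with both, against 151 in the control. The active-site subunits thus did not differ in parallel, since with DiBP the level of PSMB6 was above the control and those of PSMB5 and PSMB7 were below it.

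The other beta subunits have no active site. PSMB1 was at 245 FPKM with DBP, 309 with DiBP and 215 with both, against 208 in the control. PSMB4 was at 235 FPKM with DBP, 219 with DiBP and 225 with both, against 256 in the control. These were the most abundant of the inactive ones, with DiBP the highest library for PSMB1 and the control for PSMB4. PSMB2 was at 145 FPKM with DBP, 127 with DiBP and 104 with both, against 115 in the control. PSMB3 was at 124 FPKM with DBP, 131 with DiBP and 105 with both, against 115 in the control. The ratio of the highest to the lowest beta subunit was 2.71 with DBP, 5.09 with DiBP and 2.16 with both, against 2.23 in the control, with PSMB5 the lowest in the DBP and DiBP libraries.

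The ATPase ring was the most even of the structural groups in each library. Summed over paralog rows, its 6 subunits had a coefficient of variation of 16.1% with DBP, 29.2% with DiBP and 23.3% with both, against 21.9% in the control. PSMC2, the most abundant row, was at 118 FPKM with DBP, 125 with DiBP and 81.9 with both, against 103 in the control. PSMC3 was at 99.9 FPKM with DBP, 79.4 with DiBP and 63.4 with both, against 76.5 in the control. For both, the combined library had the lowest value. PSMC4 was at 82.97 FPKM with DBP, 59.8 with DiBP and 68.8 with both, against 73.4 in the control. PSMC6 was at 75.02 FPKM with DBP, 62.9 with DiBP and 73.7 with both, against 69.1 in the control. No ATPase row lay 1.5-fold from the control with any exposure. PSMC1 was carried by a pair of rows of nearly equal level. PSMC1 (ENSDARG00000030537) was at 51.7 FPKM with DBP, 58.9 with DiBP and 61.9 with both, against 59.6 in the control. The row psmc1b (ENSDARG00000043561), the lowest ATPase row by its mean, was at 53.7 FPKM with DBP, 48.3 with DiBP and 54.9 with both, against 58.9 in the control.

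The largest differences lay among the non-ATPase subunits. PSMD2 is the large scaffold of the base on which ubiquitin shuttles and a deubiquitinase dock, and it was carried by a pair of rows. ENSDARG00000099653 was at 35.4 FPKM with DBP, 28.1 with DiBP and 60.4 with both, against 66.6 in the control. ENSDARG00000103190 was at 25.7 FPKM with DBP, 15.7 with DiBP and 38.7 with both, against 48.2 in the control. In both rows the single exposures lay below the control, DiBP lowest, and the combined library lay between DBP and the control. The log2 ratios to control of the first and second row were -0.89 and -0.88 with DBP, -1.21 and -1.56 with DiBP, and -0.14 and -0.31 with both. The rows carry the same symbol and may share reads, so they are not separate evidence.

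PSMD1, the other large scaffold of the base, was at 35.3 FPKM with DBP, 39.2 with DiBP and 47.2 with both, against 47.3 in the control. The single exposures were lower and the combined library matched the control. PSMD3, a lid subunit whose row has the same values as an unnamed row, was at 49.5 FPKM with DBP, 45.9 with DiBP and 54.1 with both, against 65.8 in the control. PSMD13 (ENSDARG00000016239), also of the lid, had its highest value with DiBP, at 123 FPKM with DBP, 169 with DiBP and 101 with both, against 95.8 in the control. Its log2 ratio to control was 0.81 with DiBP. PSMD12, another lid subunit, was at 36.5 FPKM with DBP, 53.96 with DiBP and 38.1 with both, against 37.2 in the control. PSMD8 (ENSDARG00000020454), again of the lid, was at 57.2 FPKM with DBP, 93.4 with DiBP and 52.8 with both, against 82.3 in the control. Here the DBP and combined libraries were low and DiBP was above the control.

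PSMD14, the deubiquitinase that removes the ubiquitin chain, had the highest mean of the cap rows, at 162 FPKM with DBP, 151 with DiBP and 184 with both, against 192 in the control. PSMD7, its partner, was at 94.7 FPKM with DBP, 105 with DiBP and 102 with both, against 89.6 in the control. PSMD6, a lid subunit, was at 152 FPKM with DBP, 139.7 with DiBP and 169 with both, against 173 in the control. For PSMD14 and PSMD6 the control was highest and DiBP lowest, and for PSMD7 the control was lowest. The ubiquitin receptor PSMD4 and the lid subunit PSMD11 had a pair of rows each. The row psmd4b was at 36.6 FPKM with DBP, 39.3 with DiBP and 30.6 with both, against 36.7 in the control. The row PSMD4 (ENSDARG00000101295), which shares its values with 2 other rows, was at 27.3 FPKM with DBP, 21.7 with DiBP and 22.8 with both, against 20.2 in the control. The PSMD11 row ENSDARG00000060150 held most of that pair's level, at 34.3 FPKM with DBP, 39.6 with DiBP and 34.4 with both, against 37.7 in the control. ENSDARG00000005134, the lowest cap row by its mean, was at 14.1 FPKM with DBP, 15.98 with DiBP and 11.2 with both, against 16.6 in the control.

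The 3 chaperones of the base differed from each other. PSMD9 (ENSDARG00000006300) was at 44.99 FPKM with DBP, 60.00 with DiBP and 26.8 with both, against 31.7 in the control. PSMD10, also known as gankyrin, was at 82.9 FPKM with DBP, 66.7 with DiBP and 45.8 with both, against 58.9 in the control. PSMD5 (ENSDARG00000059046) was at 10.5 FPKM with DBP, 7.09 with DiBP and 10.4 with both, against 13.95 in the control. PSMD9 and PSMD10 were above the control with each single compound and below it with both, while PSMD5 was below the control in all 3 exposed libraries.

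**Figure D2:**
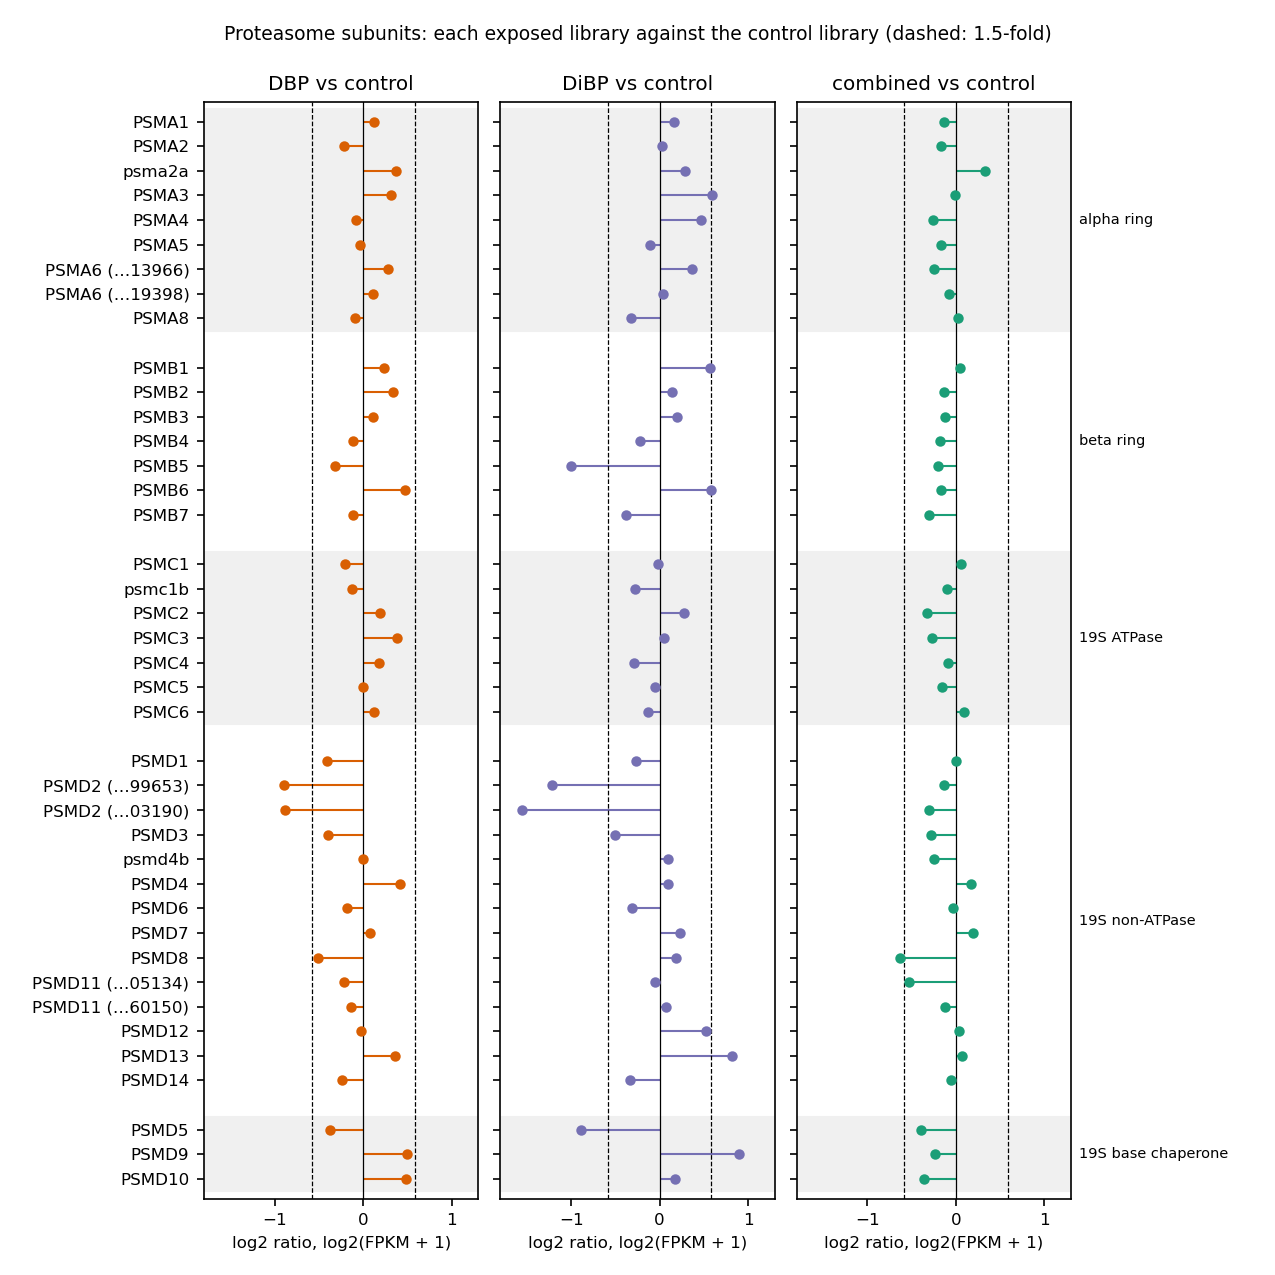
Log2 ratio of each proteasome row to the control library on the log2(FPKM + 1) scale, in the DBP, DiBP and combined libraries (panels from left to right). The 2 PSMD2 rows lie furthest to the left in the DBP and DiBP panels, PSMD9 and PSMD13 furthest to the right in the DiBP panel, and the combined panel has the smallest spread.

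Few rows lay beyond 1.5-fold from the control. With DBP, 0 of 40 rows were at least 1.5-fold higher, where 12.2% of the 13859 loci were, and 2 were at least 1.5-fold lower, where 10.4% of loci were. As deposited, both were rows of PSMD2. With values scaled by median of ratios, to equal sums, or to equal sums without the 50 most abundant loci, 3 rows were lower. The share of all loci was not computed at those scalings. With DiBP, 3 rows were higher (15.7% of loci) and 4 lower (18.1% of loci). The higher ones were PSMD9 (log2 ratio 0.90), PSMD13 (0.81) and PSMA3 (0.59). The lower ones were the 2 PSMD2 rows, PSMB5 (-0.997) and PSMD5 (-0.89). With both compounds, 0 rows were higher (7.78% of loci) and 1 was lower (10% of loci), PSMD8, at -0.63; with values scaled to equal sums apart from the 50 most abundant loci it was at -0.52 and 0 rows were called. In these comparisons, with values as deposited, the share of rows called was below that of all loci.

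Some rows lay close to the limit. Just beyond it were PSMA3 with DiBP (log2 ratio 0.59) and PSMD8 with both (-0.63). Just short of it were PSMB6 (0.58), PSMB1 (0.57) and PSMD12 (0.52) with DiBP, PSMD8 (-0.52) with DBP and the lower PSMD11 row (-0.53) with both. With values scaled to equal sums, the DiBP library had 2 rows higher and 5 lower. The share of all loci was not computed at that scaling, where their median log2 ratio was -0.159, against -0.057 as deposited. A 2-fold limit left 0 rows with DBP (8.12% of loci), 2 with DiBP (14.3% of loci), both of PSMD2, and 0 with both compounds (6.71% of loci).

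Among the 6210 abundant loci fewer lie beyond 1.5-fold. In either direction, 2 of 40 rows did with DBP, where 17.3% of the abundant loci did, 7 with DiBP, where 28.3% did, and 1 with both, where 9.50% did. The SD of the log2 ratio over the rows was 0.34 with DBP, 0.51 with DiBP and 0.19 with both. Over the abundant loci, which were not matched to the rows in level, it was 0.59 with DBP, 0.72 with DiBP and 0.57 with both. Quartiles set the 2 groups less far apart than the SD. With both they were -0.25 and -0.0056 over the rows, and -0.28 and 0.060 over the abundant loci. The rows' median log2 ratio was -0.015 with DBP, 0.045 with DiBP and -0.14 with both; with values scaled to equal sums the DiBP median was -0.0758. Over all loci past the filter it was 0.0092 with DBP, -0.057 with DiBP and -0.080 with both. Over the abundant loci that median was 0.0189 with DBP, -0.0715 with DiBP and -0.11 with both. With both compounds 9 of 40 rows were above the control (22.5%), beside 32.8% of the abundant loci.

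**Figure D3:**
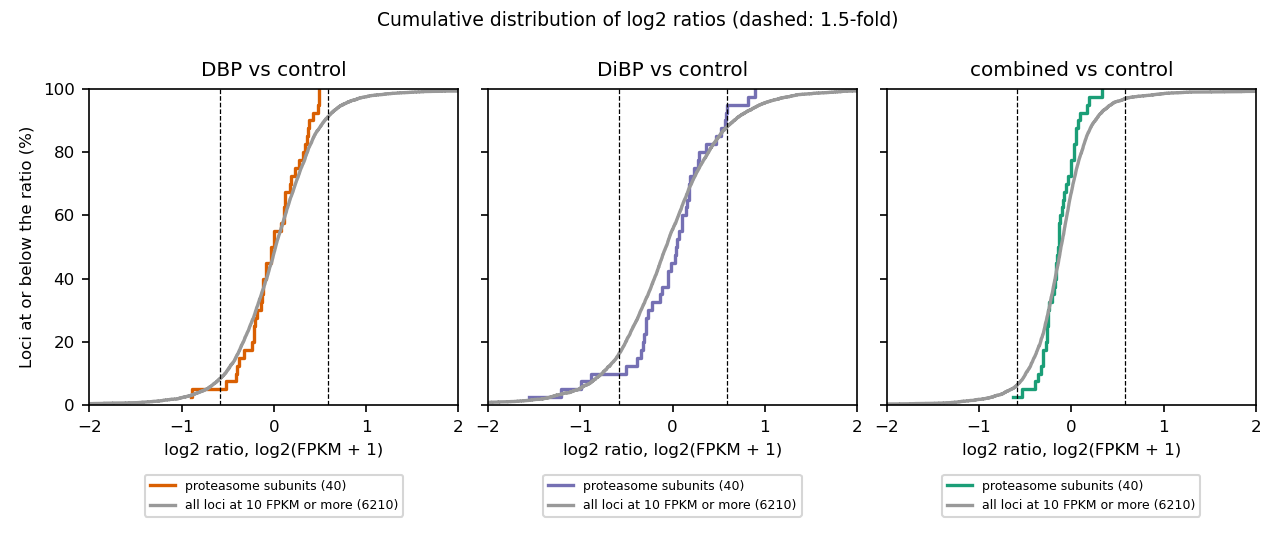
Cumulative share of loci (percent) at or below each log2 ratio to control, for the 40 proteasome rows (coloured) and the 6210 abundant loci (mean of 10 FPKM or more, grey), in the DBP, DiBP and combined libraries (panels from left to right). The SD was smaller for the rows than for the loci in each panel, at 0.34 against 0.59, 0.51 against 0.72 and 0.19 against 0.57. In the combined panel the quartiles were -0.25 and -0.0056 for the rows and -0.28 and 0.060 for the loci.

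Core and cap were compared within each library, with rows of the same subunit, paralogs included, summed. FPKM is scaled by length, so levels of different genes can be set side by side. The median of the 14 core subunits was 183 FPKM with DBP, 183 with DiBP and 169 with both, against 177 in the control. The median of the 17 cap subunits was 83.0 FPKM with DBP, 79.4 with DiBP and 73.7 with both, against 82.3 in the control. The core median was thus 2.21 times the cap median with DBP, 2.30 times with DiBP and 2.30 times with both, against 2.15 times in the control. Taken as means, the ratio was 2.09 with DBP, 2.15 with DiBP and 1.83 with both, against 1.85 in the control.

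**Figure D4:**
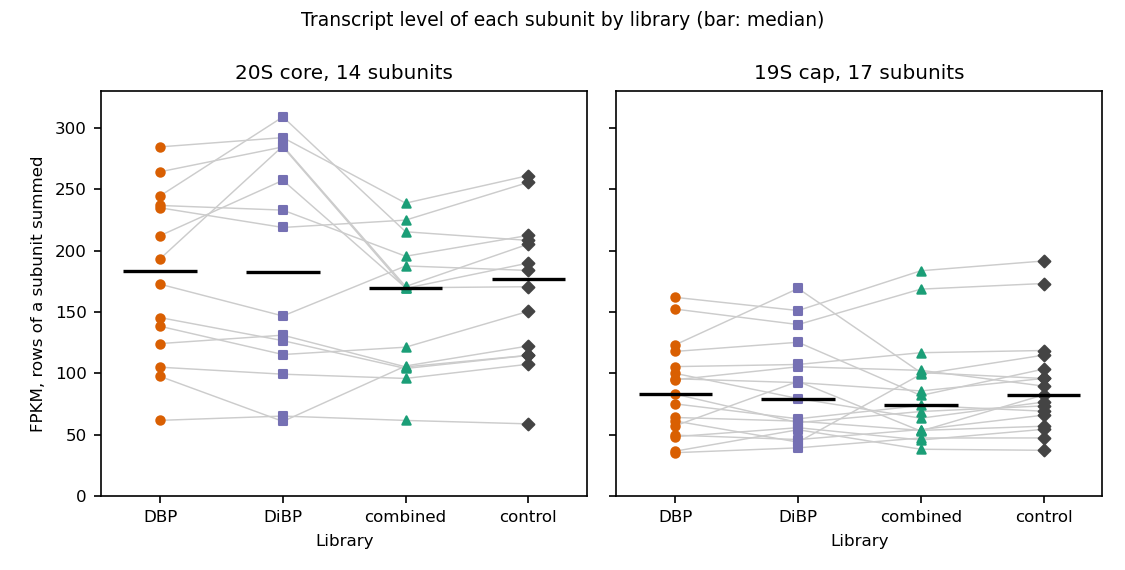
FPKM of each of the 14 core and 17 cap subunits in the DBP, DiBP, combined and control libraries, rows of the same subunit summed. The medians are 183, 183, 169 and 177 FPKM for the core and 83.0, 79.4, 73.7 and 82.3 FPKM for the cap, in that order of libraries.

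By place in the complex, the median log2 ratio to control of the 16 core rows was 0.11 with DBP, 0.15 with DiBP and -0.15 with both. Over the 21 cap rows it was -0.13 with DBP, -0.049 with DiBP and -0.10 with both. Within the cap, the ATPases had 0.12 with DBP, -0.051 with DiBP and -0.10 with both. The non-ATPase rows had -0.20 with DBP, 0.010 with DiBP and -0.095 with both.

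DBP and DiBP are isomers given for the same time. It is unknown whether their doses were equal, and 1 library each allows no interval, so the values are only set side by side. In the DiBP library 1 row was at least 1.5-fold higher than in the DBP library (9.06% of loci) and 2 were lower (11.3% of loci). PSMD8 was the higher one (log2 ratio 0.70). The lower ones were PSMB5 (-0.67) and the PSMD2 row ENSDARG00000103190 (-0.67). Under median-of-ratios scaling 3 rows were higher and 2 lower, and the shares of all loci were not computed there. The median log2 ratio was -0.060 over the rows and -0.078 over all loci. None was beyond 2-fold, where 8.21% of loci were.

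The combined library was then set against each single exposure. Relative to DBP, 1 row was at least 1.5-fold higher (7.62% of loci) and 4 were lower (13.4% of loci). The higher one was the PSMD2 row ENSDARG00000099653 (log2 ratio 0.76), and the lower ones were PSMD10 (-0.84), PSMD9 (-0.73), PSMC3 (-0.65) and PSMB6 (-0.64). Relative to DiBP, 3 rows were higher (12.6% of loci), namely the 2 PSMD2 rows (1.08 for ENSDARG00000099653 and 1.25 for ENSDARG00000103190) and PSMB5 (0.79). Lower were 8 rows (15.4% of loci): PSMD9 (-1.13), PSMD8 (-0.81), PSMB6 (-0.75), PSMD13 (-0.74), PSMA4 (-0.74), the PSMA6 row ENSDARG00000013966 (-0.61), PSMC2 (-0.61) and PSMA3 (-0.60). Beyond 2-fold lay 0 rows relative to DBP (7.30% of loci) and 3 relative to DiBP (10.4% of loci). Scaled to equal sums, 2 rows were higher and 2 lower than with DBP, and 4 higher and 4 lower than with DiBP. The shares of all loci were not computed at that scaling, which moved the median of all loci by 0.094 and 0.13.

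Genes that build, bind or feed the proteasome were described from further lists. Their counts beyond 1.5-fold are read against the same shares of all loci: 12.2% higher and 10.4% lower with DBP, 15.7% and 18.1% with DiBP, and 7.78% and 10% with both. In lists this short 1 row is a large share. Of 4 assembly factors of the core, 1 was at least 1.5-fold higher with DBP (25%, against 12.2% of all loci) and none lower; with DiBP and with both compounds none passed that limit. It was PSMG1, a chaperone of the alpha ring, at 93.9 FPKM with DBP, 89.8 with DiBP and 52.3 with both, against 59.96 in the control. The assembly factor PSMG2 was at 80.9 FPKM with DBP, 92.97 with DiBP and 67.4 with both, against 69.01 in the control. PSMG3, from the same list, was at 56.2 FPKM with DBP, 51.8 with DiBP and 39.8 with both, against 52.7 in the control. Of 4 further subunits and bound deubiquitinases, 1 was higher with DiBP (25%, against 15.7% of all loci) and no other passed the limit with any exposure. It was SEM1, the smallest cap subunit, at 83.01 FPKM with DBP, 99.8 with DiBP and 74.3 with both, against 65.6 in the control. UCHL5, a deubiquitinase of the cap, was at 72.4 FPKM with DBP, 59.5 with DiBP and 40.1 with both, against 52.4 in the control. USP14, another bound deubiquitinase, was at 40.7 FPKM with DBP, 54.1 with DiBP and 42.02 with both, against 43.6 in the control.

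Other activators bind the core in place of the cap. PSME1 and PSME2 form the interferon-inducible activator. PSME1 was at 5.56 FPKM with DBP, 5.22 with DiBP and 0.752 with both, against 1.06 in the control. PSME2 was at 2.15 FPKM with DBP, 3.14 with DiBP and 1.07 with both, against 1.06 in the control. Both were higher with each single compound than in the combined and control libraries. The nuclear activator PSME3 was far more abundant and within 1.5-fold of the control with each exposure, at 72.2 FPKM with DBP, 79.4 with DiBP and 52.02 with both, against 64.2 in the control. The activator PSME4 (ENSDARG00000018742) was within that limit too, at 3.65 FPKM with DBP, 2.86 with DiBP and 4.57 with both, against 3.74 in the control. ECPAS, which in yeast tethers core to cap, was at 6.496 FPKM with DBP, 6.97 with DiBP and 7.37 with both, against 15.4 in the control. All 3 exposed libraries lay below the control for ECPAS. Of the 6 activator and inhibitor rows past the filter, 2 were higher (33.3%, against 12.2% of all loci) and 1 lower (16.7%, against 10.4%) with DBP. With DiBP 2 were higher (33.3%, against 15.7%) and 1 lower (16.7%, against 18.1%), and with both 0 were higher (7.78% of all loci) and 1 lower (16.7%, against 10%). The higher ones were PSME1 and PSME2 and the lower one ECPAS.

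In immune cells, alternative beta subunits replace the active ones, and 3 of 7 such rows passed the filter. PSMB9, the alternative to PSMB6, was at 4.76 FPKM with DBP, 7.05 with DiBP and 1.22 with both, against 2.35 in the control. The row psmb12 was at 7.21 FPKM with DBP, 14.7 with DiBP and 4.45 with both, against 8.45 in the control. In both, DiBP was above the control and the combined library below it. PSMB10, the alternative to PSMB7, was at 15.3 FPKM with DBP, 21.1 with DiBP and 11.7 with both, against 40.1 in the control. All 3 exposed libraries were below the control here. Of these 3 rows, 1 was higher and 1 lower by at least 1.5-fold with DBP (33.3% each, against 12.2% and 10.4% of all loci). With DiBP 2 were higher (66.7%, against 15.7%) and 1 lower (33.3%, against 18.1%), and with both 0 were higher (7.78% of all loci) and 3 lower (10% of all loci). PSMB8, the alternative to PSMB5, stayed under the filter and shares its values with another row, at 0.402 FPKM with DBP, 0.431 with DiBP and 0.142 with both, against 0.0276 in the control.

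Leukocyte markers are given beside these genes. The 6 rows summed to 7.66 FPKM with DBP, 7.54 with DiBP and 5.16 with both, against 2.89 in the control. Above the control were 5 rows with DBP (50.8% of all loci were), 6 with DiBP (45.6% of all loci) and 5 with both (40.0% of all loci). Only 3 of the 6 rows passed the filter, and mhc2dab was listed at 0 with DBP. The general leukocyte marker ptprc was at 0.481 FPKM with DBP, 0.296 with DiBP and 0.0342 with both, against 0.0240 in the control. The class II chaperone cd74a was at 4.39 FPKM with DBP, 2.74 with DiBP and 0.485 with both, against 1.04 in the control. Both had their highest values with the single compounds. CORO1A, a leukocyte actin regulator whose row shares its values with another, was at 0.993 FPKM with DBP, 1.84 with DiBP and 1.51 with both, against 0.637 in the control. The lysozyme gene lyz was at 0.949 FPKM with DBP, 1.09 with DiBP and 2.64 with both, against 0.922 in the control. For CORO1A and lyz the combined library was above DBP, so the marker rows did not share 1 order. The part of these cells in the values of PSME1, PSME2 and PSMB9 was not tested.

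**Figure D5:**
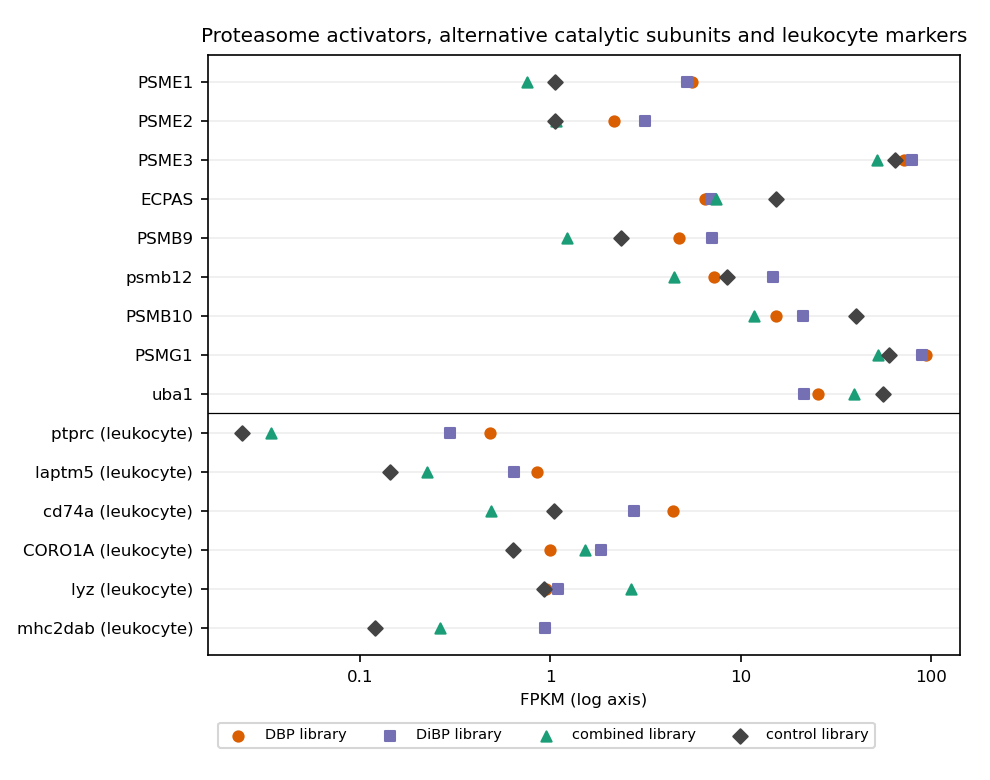
FPKM (log axis) of proteasome activators, alternative beta subunits, the assembly factor PSMG1, the E1 enzyme gene uba1 and all 6 leukocyte marker rows in the DBP, DiBP, combined and control libraries. PSME1, PSME2, PSME3, PSMB9, PSMG1, ptprc, laptm5, cd74a, CORO1A and lyz are higher with each single compound than in the control. ECPAS, PSMB10 and uba1 are lower with each, and psmb12 is lower with DBP and higher with DiBP. The marker mhc2dab is listed at 0 with DBP, has no point there, and is higher with DiBP.

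Upstream of the proteasome, uba1, the main E1 enzyme that activates ubiquitin, was at 25.5 FPKM with DBP, 21.5 with DiBP and 39.1 with both, against 55.9 in the control. All 3 exposed libraries lay below the control, the single compounds most. Its log2 ratio to control was -1.10 with DBP, -1.34 with DiBP and -0.50 with both, the last within 1.5-fold. Of 6 ubiquitin and E1 loci past the filter, uba1 was the 1 lower with DBP (16.7%, against 10.4% of all loci) and with DiBP (16.7%, against 18.1%). The 1 higher was rps27a with DiBP (16.7%, against 15.7%), a fusion of ubiquitin and a ribosomal protein, at 579.6 FPKM with DBP, 816 with DiBP and 455 with both, against 475 in the control. With both, the 1 lower (16.7%, against 10%) was the polyubiquitin gene UBB, which shares its values with the row ubb, at 156 FPKM with DBP, 144 with DiBP and 101 with both, against 153 in the control. Of 9 ubiquitin shuttles and factors of the VCP unfoldase, 1 was lower with DBP (11.1%, near the 10.4% of all loci) and no other passed the limit. It was UBQLN4, at 16.6 FPKM with DBP, 19.7 with DiBP and 21.8 with both, against 26.6 in the control. The shuttle RAD23B was at 63.8 FPKM with DBP, 51.5 with DiBP and 74.1 with both, against 76.1 in the control. FAF1, a partner of VCP, was at 20.7 FPKM with DBP, 20.1 with DiBP and 26.2 with both, against 28.7 in the control. None of 3 rows of the Nrf1 route, which in mammalian cells raises proteasome genes when the enzyme is blocked, passed the limit; its protease DDI2 was at 10.6 FPKM with DBP, 8.06 with DiBP and 10.8 with both, against 11.8 in the control. NGLY1, the glycanase of that route, was at 11.2 FPKM with DBP, 11.5 with DiBP and 10.2 with both, against 10.7 in the control. The row nfe2l1b, a gene of Nrf1 itself, was at 1.05 FPKM with DBP, 1.42 with DiBP and 1.16 with both, against 1.57 in the control.

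The anaphase-promoting complex had 18 rows, of which 1 was higher (5.56%, against 12.2% of all loci) and 1 lower (5.56%, against 10.4%) with DBP. With DiBP 2 were higher (11.1%, against 15.7%) and 4 lower (22.2%, against 18.1%), and with both 0 were higher (7.78% of all loci) and 0 lower (10% of all loci). Its small subunit CDC26, whose row shares its values with another, was at 32.7 FPKM with DBP, 27.6 with DiBP and 23.1 with both, against 18.3 in the control. The activator gene fzr1b was at 4.87 FPKM with DBP, 2.86 with DiBP and 5.32 with both, against 6.83 in the control. FZR1, a more abundant activator row, was at 30.2 FPKM with DBP, 21.9 with DiBP and 32.6 with both, against 36.2 in the control. The activator CDC20 stayed within 1.5-fold of the control, at 97.6 FPKM with DBP, 83.3 with DiBP and 77.6 with both, against 97.5 there. The row called lower with DBP was ANAPC1 (log2 ratio -0.61), while fzr1b was at -0.42. The substrate-binding subunit ANAPC10 was at 80.3 FPKM with DBP, 103 with DiBP and 60.2 with both, against 61.9 in the control. Complexes with other tasks are given for comparison. Of 7 rows of the COP9 signalosome, which is related in build to the lid, 1 was lower with DiBP (14.3%, against 18.1% of all loci) and no other passed the limit: COPS3, at 31.2 FPKM with DBP, 19.8 with DiBP and 29.1 with both, against 32.1 in the control. COPS2 was at 55.9 FPKM with DBP, 61.4 with DiBP and 48.9 with both, against 67.6 in the control. The catalytic subunit COPS5 was at 57.1 FPKM with DBP, 50.8 with DiBP and 41.8 with both, against 43.5 in the control. Of 8 rows of the CCT chaperonin, 1 was lower with DBP (12.5%, against 10.4% of all loci), 2 with DiBP (25%, against 18.1%) and 0 with both (10% of all loci), and none was higher. The row cct2 (ENSDARG00000087206) was at 131 FPKM with DBP, 89.2 with DiBP and 179.8 with both, against 236 in the control. A more abundant row of that symbol, CCT2 (ENSDARG00000104674), was within 1.5-fold of the control with each exposure, at 327 FPKM with DBP, 392 with DiBP and 299 with both, against 298 in the control. The other row called with DiBP was TCP1, at 175 FPKM with DBP, 134 with DiBP and 211 with both, against 233 in the control. CCT7 was at 143 FPKM with DBP, 119 with DiBP and 150.1 with both, against 179 in the control.

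Most oocyte marker rows stayed within 1.5-fold of the control. Of 7 past the filter, 2 were higher with DBP (28.6%, against 12.2% of all loci), 1 with DiBP (14.3%, against 15.7%) and 0 with both (7.78% of all loci). Lower were 0 with DBP (10.4% of all loci), 0 with DiBP (18.1% of all loci) and 1 with both (14.3%, against 10%). The oocyte linker histone gene h1m was at 1453 FPKM with DBP, 1889 with DiBP and 427 with both, against 531 in the control. The transcription factor gene figla was at 41.2 FPKM with DBP, 24.7 with DiBP and 21.1 with both, against 17.6 in the control. DAZL, a germ-cell RNA-binding protein, was at 31.3 FPKM with DBP, 23.5 with DiBP and 13.2 with both, against 25.2 in the control. Over the 7 rows the median log2 ratio was 0.075 with DBP, -0.10 with DiBP and -0.44 with both. The 7 granulosa rows, of which 2 passed the filter, summed to 7.25 FPKM with DBP, 6.65 with DiBP and 2.95 with both, against 2.47 in the control. Much of that difference came from CYP19A1, at 3.65 FPKM with DBP, 4.18 with DiBP and 0.837 with both, against 0.677 in the control. FOXL2 (ENSDARG00000068417) was at 1.43 FPKM with DBP, 1.19 with DiBP and 1.24 with both, against 1.16 in the control. The part of oocytes and granulosa cells in the proteasome values was not tested.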

How the data were processed

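Total RNA of snap-frozen ovaries was made into Illumina libraries sequenced from both ends, per the labels' protocols. The deposited values are FPKM, made by the authors, with 1 table per library; the unit was inferred from the values. HISAT2, HTSeq 0.6.1 and GRCz10 appear in the submitters' processing notes; settings, annotation and strand use are not given there, so reads of overlapping genes may be mixed. Value columns of the DiBP and combined tables have headers unlike their samples' titles, and GEO's record of the file decided. Every DiBP and combined value rests on that assignment.

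A table pairing identifiers with symbols named 26996 of 35066 Ensembl rows. Rows with equal values in all 4 libraries were counted once, which left 35253 loci above 0 and 13859 with a mean of at least 1 FPKM. Ratios are differences of log2(FPKM + 1), which understates differences of low genes, and values were not rescaled. With 1 library per group no test was run, and FPKM gives no counting interval. Members and lists were chosen with earlier results of these data known. Values are printed for rows beyond 1.5-fold against the control, for the highest and lowest row of each structural group, for paralog rows and for up to 3 rows with the largest ratio of each pathway list and of the leukocyte and oocyte lists; other marker lists are given as sums or not at all. Remaining members, and PSME3, PSME4, PSMB8, CCT2 (ENSDARG00000104674), FZR1, CDC20, ANAPC1, ptprc and bmp15, were added after their values were seen. So were the smooth muscle row TAGLN, the endothelial row kdrl and the erythrocyte rows hbaa1 and cahz. The granulosa rows CYP19A1 and FOXL2 and the endothelial and erythrocyte sums were too. The code that computes and counts ratios was run on simulated data with known folds well beyond the limit and little noise. All were called in their direction, which checks the code and not the calls in these data. Alternatives were pseudocount, scaling, filter, symbol matching, merged rows, the mean in place of the median and a 2-fold limit. Python 3.11.15, numpy 2.4.6, pandas 2.3.3 and matplotlib 3.10.9 were used.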

Additional observations from a re-analysis of the deposited data

Results flagged for a closer look

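For 2 genes of the alternative beta subunits, exposed libraries lay at least 1.5-fold from the control in opposite directions. PSMB9 had a log2 ratio of 0.78 with DBP, 1.26 with DiBP and -0.60 with both. The row psmb12 had 0.74 with DiBP and -0.79 with both. These ratios share 1 control library, and the difference between the exposures was not tested, as each has 1 library. None of the 40 proteasome subunit rows did so. The share of all loci that did so was not computed, so these counts have no background beside them.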

How the results depend on the processing

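No paired analysis was possible because each group has 1 library and no result comes from a test. Leaving out a replicate was not possible for the same reason. Ratios of single rows were recomputed only with the other pseudocount and the scalings, and no row called against the control changed its direction. That outcome was fixed in advance. A pseudocount cannot reverse a ratio, and the scalings moved ratios by less than the 1.5-fold limit. Of 60 recomputed medians 54 moved by less than 0.1, of 40 recomputed ratios of single rows 32 did, of 60 recomputed counts 50 stayed within 1.5 times, and all 28 recomputed sums stayed within 10%. The medians, counts and sums include the changed filters, which could not alter any value because every row averaged at least 10 FPKM. Some medians that moved by less than 0.1 still changed sign. DiBP against control was at -0.027 with equal sums apart from the 50 most abundant loci and -0.0275 as a mean. DiBP against DBP was at 0.0093 with median-of-ratios scaling and 0.0377 without rows that share values. DBP against control was at 0.032 with rows of a subunit summed. With equal sums, the median log2 ratio was -0.0758 for DiBP against control, -0.0306 for combined against DBP and 0.0445 for combined against DiBP. The first and last of these differ in sign from the deposited scale. The median of all loci moved by -0.10 for DiBP against control and by 0.13 for combined against DiBP under that scaling. With equal sums apart from the 50 most abundant loci, the median was -0.0266 for combined against control, 0.0407 for combined against DBP and 0.0735 for combined against DiBP, with the last 2 above 0. All loci then moved by 0.097, 0.16 and 0.15 in those comparisons. Under that scaling 0 rows were called for combined against control, and 6 for combined against DiBP (4 higher and 2 lower). Median-of-ratios scaling gave 5 calls for DiBP against DBP (3 higher and 2 lower). With combined against DBP, 3 rows were higher and 1 lower without the 50 loci, and 2 and 2 with median-of-ratios scaling. Shares of all loci beyond 1.5-fold were not computed under these scalings, so the counts have no background beside them. The 2-fold limit, by construction stricter, left 0 rows for DBP against control, 2 for DiBP against control, 0 for combined against control, 0 for DiBP against DBP, 0 for combined against DBP and 3 for combined against DiBP. Summing rows of a subunit, an alternative chosen after seeing the data, left 1 call for DBP against control, since the PSMD2 rows became 1. PSMA3 was at a log2 ratio of 0.47 for DiBP against control with equal sums, and PSMD8 at -0.52 for combined against control without the 50 loci, both short of 1.5-fold. The cause of the changes with scaling was not tested. Depth limits low genes such as PSMB8 most.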
